A study of Mus musculus with 14 samples.

Results

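CA1, CA3 and the dentate gyrus (DG) of the mouse hippocampus were compared after enzymatic dissociation, to see which differences between the pyramidal regions and DG can still be measured in tissue treated that way. All 7 dissociated libraries of the 14 in the study entered the comparison. They are CA1 replicates 1, 2 and 3 and CA3 replicates 1 and 4, pooled as 5 pyramidal libraries, against DG replicates 3 and 4. Members were taken by their region and treatment labels, and no measured value was used to choose them.

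All tissue came from the strain C57BL/6, and the labels name no genetic change. Per the labels' protocols, dissociated tissue was kept with pronase (1 mg/ml), which digests proteins, for 75 min at room temperature. Vortexing, centrifugation and trituration with 1% FBS followed before RNA was isolated. The 7 control libraries (CA1 replicates 1, 2 and 3, CA3 replicates 1 and 4, DG replicates 2 and 3) came from tissue homogenised without that treatment, and they serve here only as a reference set that shares no library with the dissociated contrast. The authors' sample table names 1 mouse for all 14 libraries, so p-values measure the spread between tissue samples of 1 animal. Neither age nor sex is stated in the labels.

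The pyramidal regions and DG hold different principal neurons. CA1 and CA3 are built around pyramidal cells, which express the transcription factor gene Neurod6 and which differ between CA1 and CA3 in further genes. The DG is built around small, densely packed granule cells, whose identity depends on the transcription factor Prox1 and whose axons, the mossy fibres, run to CA3. Each tissue sample also holds interneurons, glia and vessel cells. In bulk tissue, fewer cells of a type and less RNA per cell cannot be told apart.

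Depth set much of what could be seen. Estimated counts per library were 4782767, 135065 and 300812 in CA1 replicates 1, 2 and 3, 2498914 and 1193153 in CA3 replicates 1 and 4, and 65887 and 598775 in DG replicates 3 and 4. By library total, a gene with no count in DG replicate 3 could be at up to 45.5 CPM (counts scaled to a common library size). In DG replicate 4 it could be at up to 5.01 CPM. The limit is 3 counts and covers counting error only. In the scaled CPM printed for genes below, 3 counts are 50.8 CPM in DG replicate 3 and 4.86 CPM in DG replicate 4. Mean log10 depth was 5.95 in the pyramidal and 5.30 in the DG libraries. The mean share of genes detected was 55.2% and 42.7%, and that of counts from the mitochondrial genome 11.2% and 9.94%. Two-sided exact permutation tests called none of these 3 differences (p = 0.286, 0.238 and 0.667, adjusted p over the 3 measures 0.429, 0.429 and 0.667). The smallest p that 5 against 2 libraries allow is 0.0476, so the tests do not show that depth was balanced.

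Marker genes were summed in each library as a check of the labels, in CPM scaled by edgeR's TMM factors. Granule cell markers (19 genes, among them Prox1, C1ql2 and Dsp) summed to 1576 and 4193 CPM in DG replicates 3 and 4, and to between 313 and 446 CPM in the 5 pyramidal libraries. Markers shared by both kinds of pyramidal cell (6 genes) summed to 322 and 251 CPM in DG and to between 1188 and 1522 CPM in the pyramidal libraries. Both sums separated DG from every pyramidal library, as the labels have it.

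The labels CA1 and CA3 did not all fit the markers. CA1 markers (12 genes) summed to 3195 and 2614 CPM in CA1 replicates 1 and 2, but to 255 CPM in the library labelled CA1 replicate 3. CA3 markers (10 genes) summed to 946 CPM in that library, against 175 and 113 CPM in CA1 replicates 1 and 2. The library labelled CA3 replicate 1 was the reverse, with 2244 CPM of CA1 markers and 200.1 CPM of CA3 markers, against 357 and 1138 CPM in CA3 replicate 4. In control tissue the library labelled CA3 replicate 1 likewise held 3121 CPM of CA1 markers and 172 CPM of CA3 markers. Pooling CA1 and CA3 as pyramidal does not depend on these labels, but any split of the pyramidal libraries does.

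DG libraries also differed among themselves. DG replicate 3 held a granule cell sum of 1576 CPM against 4193 CPM in DG replicate 4, and 762 CPM of CA1 markers against 209 CPM. Of the control libraries, DG replicate 2 held 1608 CPM of granule cell markers and 1116 CPM of shared pyramidal markers, against 4794 and 298 CPM in DG control replicate 3. Results that rest on 1 of these libraries are therefore given with and without it.

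**Figure D1:**
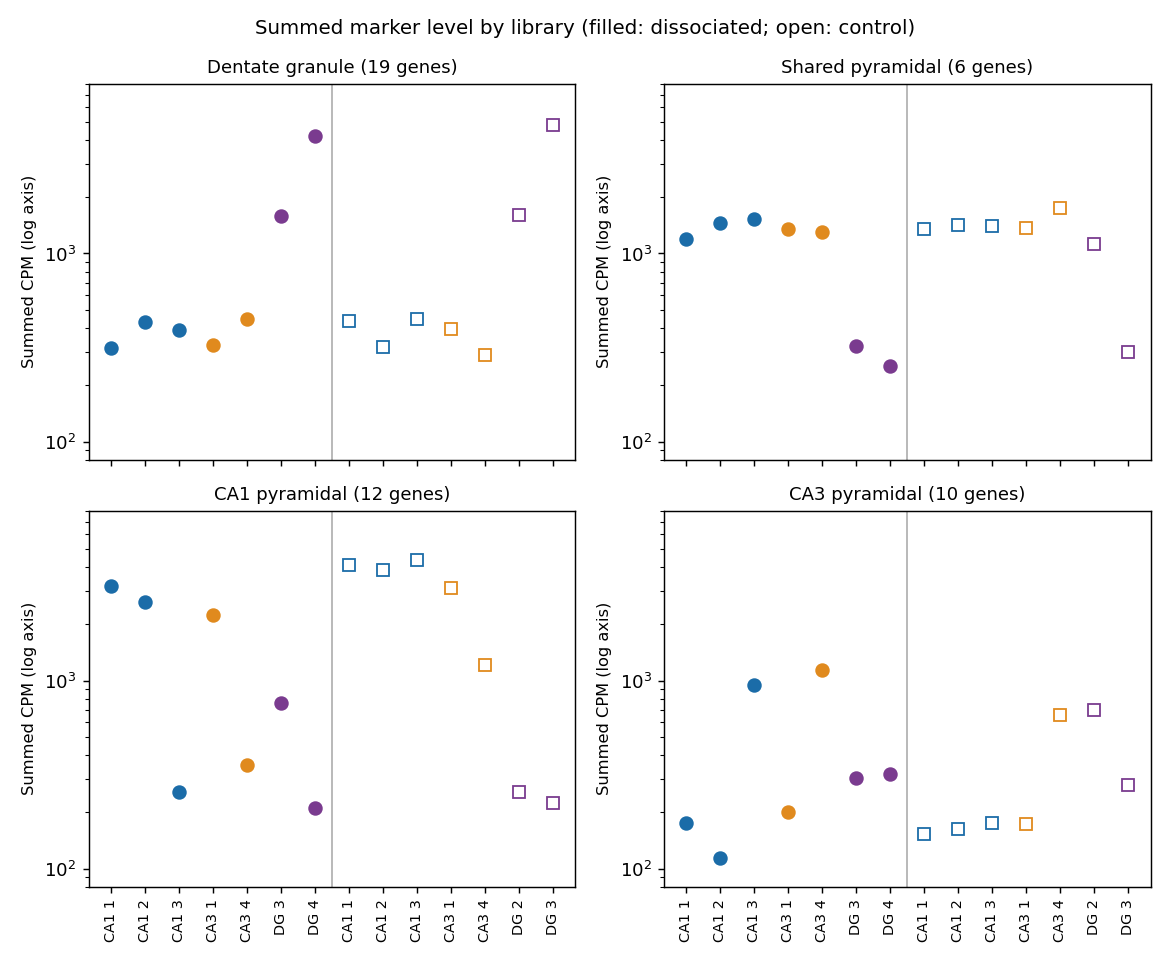
Summed CPM (log axis) of 4 marker lists in each library, with dissociated libraries as filled circles, control libraries as open squares, and colours for CA1, CA3 and DG. Granule cell markers reach 1576 and 4193 CPM in the 2 dissociated DG libraries and stay at 446 CPM or less in the pyramidal ones, while CA1 markers are at 255 CPM in the library labelled CA1 replicate 3 and at 2244 CPM in that labelled CA3 replicate 1.

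Differences between pyramidal regions and DG were measurable after dissociation, in both directions. Granule cell genes such as C1ql2, Dsp and Stxbp6 were higher in DG, with log2 fold changes (pyramidal minus DG) of −6.78, −7.05 and −4.77, and Neurod6, Crym and Dkk3 were higher in the pyramidal libraries, with 4.56, 3.76 and 2.72. Of 9452 genes tested, 30 were called higher in the pyramidal libraries and 28 higher in DG (edgeR quasi-likelihood F test, Benjamini-Hochberg adjusted p under 0.05). This is 0.614% of the genes tested, 0.317% in the pyramidal and 0.296% in the DG direction. For 3 of the 58, Grip2, Tiam1 and Frmd6, the values of the 5 pyramidal and 2 DG libraries overlapped, and for the others they did not. Over all genes tested, both DG libraries lay above all pyramidal libraries for 6.53% and below them for 13.2%. Over all genes the log2 fold change had a median of 0.11.

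Stxbp6, which encodes a syntaxin-binding protein, was the most stable of the genes higher in DG. It was at 8.33, 21.2 and 19.6 CPM in CA1 replicates 1, 2 and 3, at 13.3 and 24.3 CPM in CA3 replicates 1 and 4, and at 321.9 and 525.4 CPM in DG replicates 3 and 4. Both DG libraries were far above the highest pyramidal library (log2 fold change −4.77 ± 0.45 SE, edgeR adjusted p = 0.000204). It was the 1 gene of the 58 called in all 7 fits that left out 1 library. Stxbp6 lies on chromosome 12 at 44852484 to 45074709 (GRCm38).

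C1ql2 encodes a secreted C1q-like protein made by granule cells and found at their mossy fibre synapses. Its levels were 1.35, 0 and 3.27 CPM in CA1 replicates 1, 2 and 3, 1.61 and 10.8 CPM in CA3 replicates 1 and 4, and 203.3 and 535.1 CPM in DG replicates 3 and 4. The groups did not overlap (log2 fold change −6.78 ± 0.69 SE, edgeR adjusted p = 0.000226). The gene lies on chromosome 1 at 120340582 to 120343174.

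Dsp encodes desmoplakin, a protein of desmosomal junctions and a standard granule cell marker. It was at 50.8 and 215.7 CPM in DG replicates 3 and 4. In the pyramidal libraries it was at 0, 0 and 3.27 CPM in CA1 and at 1.61 and 1.8 CPM in CA3 (log2 fold change −7.05 ± 0.90 SE, edgeR adjusted p = 0.00299). All were below both DG libraries, but the level in DG replicate 3 rests on 3 counts. No count in CA1 replicate 2 allows up to 22.2 CPM by library total. Plk5, a polo-like kinase family member, was at 50.8 CPM (3 counts) and 196.2 CPM in DG replicates 3 and 4. It was at 7.65 CPM or less in each pyramidal library (−4.97 ± 0.83 SE, edgeR adjusted p = 0.015). Fam163b was at 186.4 and 664.9 CPM in DG and between 18.0 and 56.7 CPM in the pyramidal libraries (−3.66 ± 0.49 SE, edgeR adjusted p = 0.00328).

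Across the granule cell markers, 17 of 19 had enough counts to be tested. Of these, 7 were called higher in DG and 0 higher in the pyramidal libraries, beside 0.296% and 0.317% of all genes. The 7 were C1ql2, Dsp, Fam163b, Plk5, Stxbp6, Tiam1, an activator of the small GTPase Rac, and Rfx3, a transcription factor of ciliated cells. The median of the 17 was −3.03, against 0.11 for all genes. Of the 17, 12 had both DG libraries above all pyramidal ones, beside 6.53% of all genes. Markers with few or no counts in the pyramidal libraries, such as Dsp, C1ql2, Plk5 and Npnt, passed the filter on low counts only through DG. Their direction was thus largely fixed, and the counts and the median of the list include them. Without DG replicate 3, 8 were called; without DG replicate 4, 1 was called (Stxbp6), the median was −1.77, and Tiam1 and Rfx3 were at −0.48 and −0.76. Without the libraries labelled CA1 replicate 3 and CA3 replicate 1, 6 were called, with a median of −3.10.

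Prox1 itself was not called. Its levels were 5.63, 28.3 and 29.5 CPM in CA1 replicates 1, 2 and 3, 38.6 and 58.5 CPM in CA3 replicates 1 and 4, and 118.6 and 259.5 CPM in DG replicates 3 and 4. The groups did not overlap (−2.65 ± 0.63 SE, edgeR adjusted p = 0.0666), and without DG replicate 3 it was called. In control tissue the pyramidal libraries were at 4.16 to 20.0 CPM (log2 fold change −4.43). The difference of the dissociated and control contrasts was not called for Prox1.

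**Figure D2:**
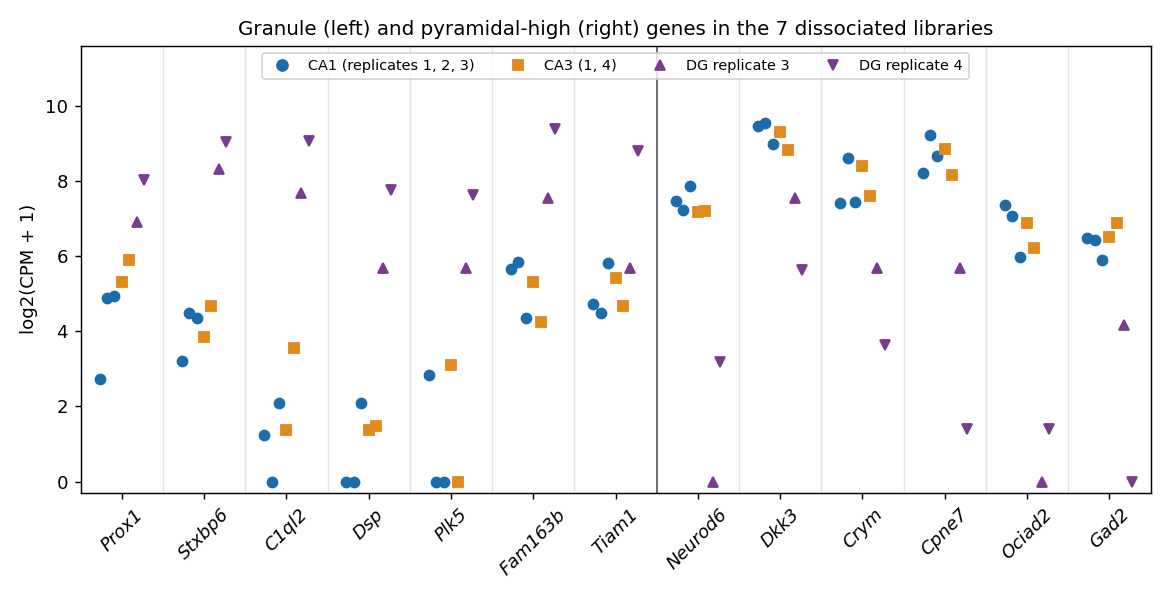
Level of 13 genes, as log2(CPM + 1), in each of the 7 dissociated libraries, with circles for CA1, squares for CA3, and upward and downward triangles for DG replicates 3 and 4. Granule cell genes (left) have both DG libraries above all pyramidal libraries except for Tiam1, and the pyramidal-high genes (right) have both DG libraries below.

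Other genes higher in DG are not on the marker list. Pcdh8, a protocadherin induced by neuronal activity, was at 135.6 and 578.9 CPM in DG and between 37.4 and 120.4 CPM in the pyramidal libraries (−2.60 ± 0.51 SE, edgeR adjusted p = 0.0375). Robo3, an axon guidance receptor, was at 33.9 and 306.5 CPM in DG and at 32.7 CPM or less in the pyramidal libraries (−3.30 ± 0.62 SE, edgeR adjusted p = 0.0336). DG replicate 3, with 2 counts of Robo3, lay barely above the highest pyramidal library. Without DG replicate 4 the log2 fold changes of Pcdh8 and Robo3 were −0.99 and −0.70 and neither was called (edgeR adjusted p = 0.669 and 0.824). Both calls were also lost without CA1 replicate 1, and that of Pcdh8 without CA1 replicate 3 or CA3 replicate 1. Cacna1h, which encodes a T-type calcium channel, was at 355.8 and 760.5 CPM in DG and between 112.6 and 189.9 CPM in the pyramidal libraries (−2.02 ± 0.37 SE, edgeR adjusted p = 0.0288), and was not called without DG replicate 4 (−1.22), CA1 replicate 1 or CA1 replicate 2. The diacylglycerol kinase gene Dgkh was at 84.7 and 257.8 CPM in DG and at 26.2 CPM or less elsewhere (−4.15 ± 0.69 SE, edgeR adjusted p = 0.015; −2.90 and not called without DG replicate 4). Plekha2 (−3.38) and Pter (−3.38) also met the rule for naming genes. Igsf9, an immunoglobulin superfamily gene, was at 50.8 and 37.3 CPM (3 and 23 counts) in DG replicates 3 and 4. It had 1 count in CA1 replicate 1 and none in the other pyramidal libraries.

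Another set of genes called higher in DG depended on DG replicate 3, the shallowest library. For 8 of the 28 genes the level in DG replicate 3 was above that in DG replicate 4, and 6 of these were no longer called when DG replicate 3 was left out: Acta1, Acta2, Klkb1, Grip2, Npffr1 and Bmt2. Acta2, the smooth muscle actin gene, was at 2711 CPM (160 counts) in DG replicate 3, at 17.8 CPM in DG replicate 4 and at 6.3 CPM or less in the pyramidal libraries. Acta1, the skeletal muscle actin gene, was at 4727 CPM (279 counts) in DG replicate 3, at 30.8 CPM in DG replicate 4 and at 11.9 CPM or less in the pyramidal libraries. In DG replicate 4 both genes were still above every pyramidal library. Without DG replicate 3 the log2 fold changes of Acta2, Acta1 and Klkb1 were −3.45, −2.40 and −1.94 (edgeR adjusted p = 0.348, 0.318 and 0.437). Acta1 and Acta2 are paralogs, and their coding sequences are similar enough that the split of reads between them is uncertain.

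The glutamate receptor scaffold gene Grip2 was at 10878 CPM in DG replicate 3 and at 682.7 CPM in DG replicate 4. It was at 602.1 and 723.5 CPM in CA1 replicates 2 and 3, the shallow pyramidal libraries, and between 289.4 and 366.6 CPM in CA1 replicate 1 and CA3. Npffr1, a neuropeptide FF receptor gene, was also highest in DG replicate 3, with 3999 and 345.4 CPM in DG replicates 3 and 4, 255.0 and 275.0 CPM in CA1 replicates 2 and 3, and 109.7 to 136.9 CPM in the deeper pyramidal libraries. Bmt2 was at 3050 and 703.8 CPM in DG, at 368.3 and 330.6 CPM in CA1 replicates 2 and 3, and at 73.9 to 99.4 CPM in the deeper pyramidal libraries. For all 3 genes DG replicate 3 was highest, and CA1 replicates 2 and 3 were above CA1 replicate 1 and CA3. DG replicate 4 was above every pyramidal library for Npffr1 and Bmt2 but not for Grip2. The part of depth in these calls was not tested. Without DG replicate 3 their log2 fold changes were −0.55, −0.98 and −1.95 (edgeR adjusted p = 0.526, 0.297 and 0.126).

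Acta2 belongs to the pericyte and smooth muscle markers. The summed level of these markers, 2711 CPM in DG replicate 3, was Acta2 alone. The other 6 members (Pdgfrb, Rgs5, Kcnj8, Abcc9, Tagln and Myh11) had no count there. At that depth no count allows up to 45.5 CPM for each gene by library total, so nothing is read from their zeros. The source of Acta2 was not tested. The sum was 76.2 CPM in DG replicate 4 and between 40.3 and 212.5 CPM in the pyramidal libraries.

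**Figure D3:**
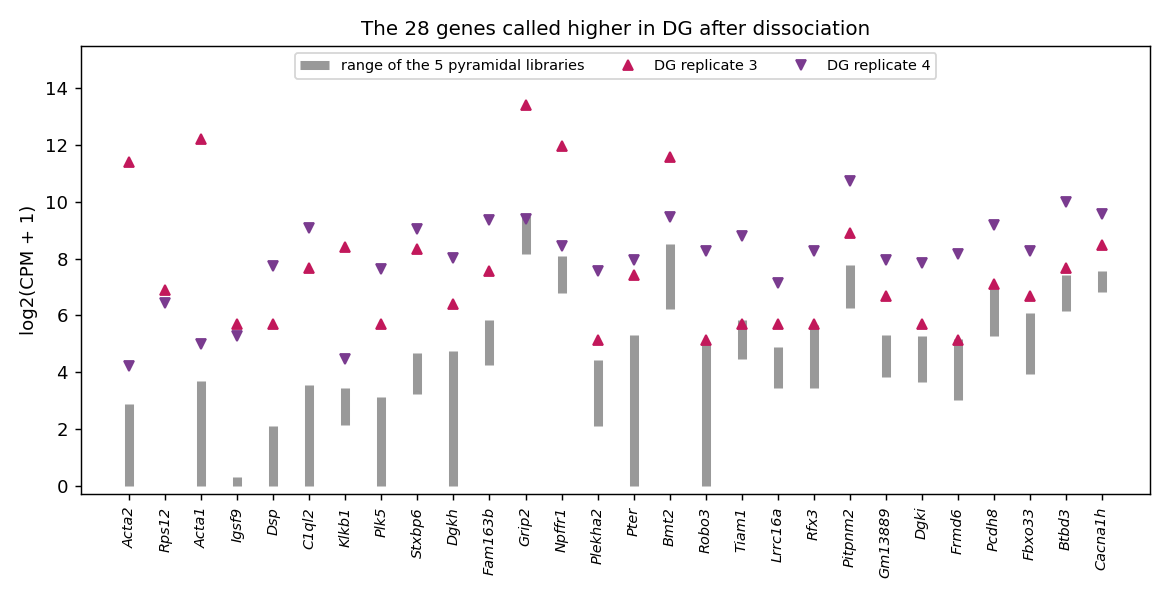
Level, as log2(CPM + 1), of the 28 genes called higher in DG after dissociation, with grey bars for the range of the 5 pyramidal libraries and triangles for the 2 DG libraries. DG replicate 4 is above the pyramidal range for the granule cell genes, whereas Acta1, Acta2, Grip2, Npffr1, Bmt2 and Klkb1 are highest in DG replicate 3.

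In the pyramidal direction, Neurod6, a transcription factor of pyramidal neurons, was at 174.8, 148.7 and 232.4 CPM in CA1 replicates 1, 2 and 3 and at 143.7 and 146.8 CPM in CA3 replicates 1 and 4. It was at 0 and 8.11 CPM in DG replicates 3 and 4. The 5 pyramidal libraries were close to each other and far above DG (4.56 ± 0.67 SE, edgeR adjusted p = 0.00708). In control tissue Neurod6 was at 1.24 CPM in DG replicate 3 but at 179.0 CPM in DG replicate 2, against a mean of 228.1 CPM in the pyramidal libraries, and it was not called there (1.41, edgeR adjusted p = 0.534). Both dissociated DG libraries were on the side of DG control replicate 3.

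Dkk3, a secreted glycoprotein gene related to Wnt inhibitors, was at 709.1, 743.7 and 510.7 CPM in CA1 replicates 1, 2 and 3, at 634.0 and 456.7 CPM in CA3 replicates 1 and 4, and at 186.4 and 48.6 CPM in DG replicates 3 and 4 (2.72 ± 0.55 SE, edgeR adjusted p = 0.0386). Crym, which encodes the thyroid hormone-binding protein mu-crystallin, was at 50.8 and 11.4 CPM in DG and between 171.4 and 389.6 CPM in the pyramidal libraries (3.76 ± 0.72 SE, edgeR adjusted p = 0.0351). For both genes DG replicate 3 was the higher of the DG libraries and still below every pyramidal library. Of the 6 shared pyramidal markers, 5 were tested, with a median of 2.72. Called higher in the pyramidal libraries were 3 (Neurod6, Dkk3 and Crym), and 0 higher in DG, beside 0.317% and 0.296% of all genes. Without DG replicate 3 the 3 remained called, and without DG replicate 4 none did. Without the libraries labelled CA1 replicate 3 and CA3 replicate 1, Crym and Neurod6 were called.

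Cpne7, a copine gene encoding a calcium-dependent membrane-binding protein, was at 296.2, 595.0 and 405.9 CPM in CA1, at 461.7 and 286.4 CPM in CA3, and at 50.8 and 1.62 CPM in DG (5.65 ± 0.93 SE, edgeR adjusted p = 0.0145). Rasal1, a regulator of Ras, was at 75.7 to 188.5 CPM in the pyramidal libraries and at 33.9 and 8.11 CPM in DG (3.61 ± 0.75 SE, edgeR adjusted p = 0.0437). Ociad2 had 1 count in the DG libraries together, and its pooled level in the pyramidal libraries was 91.2 times that in DG (95% exact Poisson interval 16.4 to 3600.3, for the counting error of DG only). Slc8a1, a sodium and calcium exchanger gene, also had 1 count in DG, with a ratio of 33.1 (5.93 to 1306). Both genes passed the filter on low counts only through the pyramidal libraries, so their direction was largely fixed and the intervals are given as values only. The call of Slc8a1 was lost when any pyramidal library was left out, and that of Ociad2 was kept in those fits.

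For 16 of the 30 genes higher in the pyramidal libraries, both DG libraries had no count, and for 8 more they had 1 to 3 counts. Genes with no count in DG passed the filter on low counts only through the pyramidal libraries. Their direction was thus fixed, and their number is not read as a result. Folds are given against 3 counts over the pooled DG libraries, which is 4.44 CPM. Nefh, the heavy neurofilament gene, was at least 16.1-fold higher, with 56.7 to 98.2 CPM in the pyramidal libraries. Stac2, Lats2, a kinase of the Hippo pathway, Cd34 and Sall2, a zinc finger gene, were at least 18.7-, 15.3-, 16.5- and 15.2-fold higher. Dbnl, Trpm2, Sh3bp4, Lzts2, Fam195b, Ifi27, Gm20683 and Pakap, also named by the rule, were at least 9.11- to 14.3-fold higher.

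In control tissue these genes were not at 0 in DG. Stac2 was at 84.3 and 3.58 CPM and Lats2 at 86.5 and 7.62 CPM in DG control replicates 2 and 3, against pyramidal control means of 60.6 and 71.6 CPM, so that the DG control libraries lay on either side of those means. Dbnl, an actin-binding adaptor gene, was at 76.9 CPM in both DG control libraries and at 70.7 CPM on average in the pyramidal ones, and Sall2 was at 50.3 and 76.2 CPM in DG control replicates 2 and 3 and at 81.5 CPM in the pyramidal ones. The difference between the dissociated and control contrasts was not called for these genes (edgeR adjusted p = 0.0524 for Dbnl and 0.0691 for Sall2). Of the 30 genes, 6 had a control log2 fold change below 0 and 14 had one above 1.

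Rps12 and Rps12-ps3 moved in opposite directions and are copies of 1 another. Rps12 encodes a protein of the small ribosomal subunit, and the copy is named as its pseudogene. Rps12 had no count in the 5 dissociated pyramidal libraries and 118.6 and 85.9 CPM in DG replicates 3 and 4. Rps12-ps3 had no count in both DG libraries and 208.1, 106.2 and 55.7 CPM in CA1 and 169.1 and 119.8 CPM in CA3. The summed level of the pair was 118.6 and 85.9 CPM in DG and between 55.7 and 208.1 CPM in the pyramidal libraries, so that the sums overlapped. In control tissue Rps12 had 99 counts in DG replicate 2 and none in DG replicate 3.

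The GENCODE M21 transcripts of the pair, 490 bases for Rps12 and 494 bases for Rps12-ps3, show how alike they are. Over 475 aligned bases all are identical, and within the alignment Rps12 has 15 bases more. The Rps12 transcript of the deposited tables differs in length from that of M21, so these extra bases may not be part of the sequence the authors quantified. The stretch around these extra bases is shown, with the extra bases in capitals (transcript positions 172 to 246 of Rps12 and 183 to 242 of Rps12-ps3).
Rps12: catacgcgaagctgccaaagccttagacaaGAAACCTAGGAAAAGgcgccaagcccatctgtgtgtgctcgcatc
Rps12-ps3: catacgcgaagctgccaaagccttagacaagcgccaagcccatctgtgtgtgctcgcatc
Reads from the identical bases cannot be assigned to 1 of the genes by sequence, so the calls of Rps12 and Rps12-ps3 are uncertain. Rps12 lies on chromosome 10 at 23785183 to 23787275 and Rps12-ps3 on chromosome 19 at 59322290 to 59322783 (GRCm38).

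CA1 markers were tested between the pyramidal libraries and DG. All 12 passed the filter, 11 had a positive log2 fold change, the median was 2.87 and 0 were called, beside 0.614% of all genes. In control tissue 11 of 12 were called, beside 3.48% of all genes, with a median of 4.56. Fibcd1, an acetyl-group-binding receptor gene, shows the spread: it was at 587.0, 517.1 and 6.55 CPM in CA1 replicates 1, 2 and 3, at 719.8 and 0 CPM in CA3 replicates 1 and 4, and at 33.9 and 30.8 CPM in DG replicates 3 and 4. The libraries labelled CA1 replicate 3 and CA3 replicate 4 were thus below DG. Wfs1, an endoplasmic reticulum membrane protein gene, was at 525.5, 297.5 and 13.1 CPM in CA1, 139.3 and 18.9 CPM in CA3, and 135.6 and 21.1 CPM in DG. The pyramidal and DG values of Wfs1 overlapped. None of the 12 was called without the 2 libraries whose CA1 and CA3 markers went against their labels, and 1 (Man1a) was called without DG replicate 3.

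No CA3 marker was called between the pooled pyramidal libraries and DG. Of the 10 markers present, 8 were tested, 0 were called and the median was 0.69. The kainate receptor gene Grik4 was at 25 CPM in replicate 1, 14.2 and 167.0 CPM in replicates 2 and 3 of CA1, at 44.7 and 172.9 CPM in CA3, and at 152.5 and 64.9 CPM in DG, so that DG lay within the pyramidal range. With 1 mean per region, 45 genes (0.476%) were called between the average of CA1 and CA3 and DG, 15 genes were called between CA1 and DG, 15 between CA3 and DG and 0 between CA1 and CA3 (edgeR; 147 of 9452 at an unadjusted p under 0.05 for CA1 and CA3, and 0 by DESeq2). These are 0.159%, 0.159% and 0% of the genes tested. Without the libraries labelled CA1 replicate 3 and CA3 replicate 1 the counts were 124, 86 and 20, in a fit with 1 CA3 library, whose spread is taken from the other groups.

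Of the interneuron markers, Gad2 was called. It encodes an enzyme of GABA synthesis, and it had 1 count in DG and was at 88.5, 85.0 and 58.9 CPM in CA1 and 89.8 and 118.0 CPM in CA3 (pooled ratio 61.9, 95% exact Poisson interval 11.1 to 2445, edgeR adjusted p = 0.0386). Of 12 markers 9 passed the filter on low counts and 1 was called, beside 0.614% of all genes. Genes such as Gad2 passed only through the pyramidal libraries, so the direction of the 9 is not read as a result. Tac1, a neuropeptide gene that was not tested, had 7 counts in DG replicate 4 and 0 in DG replicate 3, and 3, 0, 0, 11 and 2 counts in the pyramidal libraries. The vesicular GABA transporter gene Slc32a1 was at 16.9 and 3.24 CPM in DG and between 55.0 and 127.5 CPM in the pyramidal libraries, just short of a call (edgeR adjusted p = 0.0533). Gad1, the other GABA-synthesising enzyme, was at 118.6 and 233.5 CPM in DG and between 184.2 and 367.5 CPM in the pyramidal libraries, which overlap (0.36 ± 0.42 SE, edgeR adjusted p = 0.752). In control tissue Gad2 was at 129.4 CPM in DG replicate 2 and at 17.3 CPM in DG replicate 3. Without DG replicate 4, 0 interneuron markers were called.

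The calls among genes of neuronal function are given by list, beside a share of 0.614% over all genes tested. Among 41 potassium channel genes 0 were called (median −0.06), and among 15 ionotropic and 4 metabotropic glutamate receptor genes and 12 GABA-A receptor genes 0 were called. The GABA-A receptor subunit gene Gabra3 had no count in DG and 16.2 to 63.7 CPM in the pyramidal libraries (edgeR adjusted p = 0.0561). In control tissue 3 of 12 GABA-A receptor genes were called higher in the pyramidal libraries and 1 higher in DG, beside 1.82% and 1.66% of all genes.

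Among 43 axon guidance and synaptic adhesion genes Robo3 was the 1 called, and among 20 cadherins and protocadherins Pcdh8 was the 1 called, both higher in DG. None of 13 Eph receptor and ephrin genes and none of 31 calcium-binding and calcium-dependent kinase genes was called. Hpca, the calcium sensor hippocalcin, was at 1084 and 614.6 CPM in DG and between 1766 and 2341 CPM in the pyramidal libraries, which did not overlap (1.29, edgeR adjusted p = 0.122). Of 32 forebrain transcription factors, Neurod6 was called higher in the pyramidal libraries and Rfx3 higher in DG. In 8 of the 32 both DG libraries were above all pyramidal ones, among them Prox1, Nfia and Zbtb20, beside 6.53% of all genes. In 3 of the 32 both were below, beside 13.2% of all genes.

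Immediate early genes, transcribed within minutes of neuronal activity or tissue handling, had a median of −0.47 over 25 genes, and 0 were called. Fos was at 401.4, 573.7 and 415.7 CPM in CA1, at 498.4 and 842.2 CPM in CA3, and at 1339 and 1070 CPM in DG (−1.13, edgeR adjusted p = 0.149). Both DG libraries were above all pyramidal libraries for Fos, as for 4 other members, beside 6.53% of all genes. For 1 member both were below, beside 13.2% of all genes. In control tissue 5 of the 25 were called higher in DG, beside 1.66% of all genes, Fos among them (−1.36, edgeR adjusted p = 0.0176).

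Among the glial and vessel markers Acta2, described above, was called. Of 18 microglia, 17 oligodendrocyte, 14 astrocyte and 8 endothelial markers tested, 0 were called, beside 0.614% of all genes, with medians of 0.79, 0.54, −0.38 and 0.07. Within groups, the levels varied widely. Oligodendrocyte markers summed to between 1677 and 14111 CPM in the pyramidal libraries and to 11285 and 3501 CPM in DG replicates 3 and 4. Microglia markers summed to between 1256 and 2826 CPM in the pyramidal libraries and to 1745 and 717 CPM in DG. The part of these cells in the neuronal differences was not tested. The mitochondrially encoded genes had a median of 0.15 over 13 genes, with 0 called.

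The control libraries give the reference for region identity without dissociation. There, 224 genes were called higher in the pyramidal libraries and 204 higher in DG, of 12292 tested (3.48%, with 1.82% and 1.66% in each direction). After dissociation 369 of these 428 could be tested, and 333 (90.2%) had the same direction, against 58.9% of the 9391 genes tested in both. The share was 192 of 205 for genes higher in the pyramidal libraries and 141 of 164 for genes higher in DG. Some genes had few or no counts in dissociated DG, such as Cd34, or in the dissociated pyramidal libraries, such as Dsp. They passed the filter on low counts only through the other libraries, so their direction was largely fixed. The shares include such genes. Of the 36 with the opposite direction, 0 were called after dissociation by edgeR. The median log2 fold change was 1.89 in control and 1.25 in dissociated tissue for the first set, and −1.86 and −1.43 for the second. Genes chosen for a large difference in one set of libraries tend to read smaller in another, so the smaller medians are given as values only.

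Of the 428 genes, 19 were also called after dissociation, which is 4.44% of the control calls and 32.8% of the dissociated calls. Higher in DG in both were 14 genes: C1ql2, Dsp, Plk5, Stxbp6, Fam163b, Plekha2, Robo3, Tiam1, Lrrc16a, Rfx3, Pitpnm2, Gm13889, Pcdh8 and Btbd3. Higher in the pyramidal libraries in both were Rasal1, Crym, Slc8a1, Ociad2 and Cd34. The names beyond the naming rule are given because they complete the overlap. The overlap also depended on the pyramidal libraries. Without CA1 dissociated replicate 1, 2 or 3 it held 10, 11 and 19 genes, and without CA3 dissociated replicate 1 or 4 it held 13 and 25. Without DG dissociated replicate 4 the same-direction share was 73.7% and 2 genes were called in both; without DG control replicate 3 the share was 82.0% with 7 genes, and without DG control replicate 2 it was 93.9% with 36 genes.

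**Figure D4:**
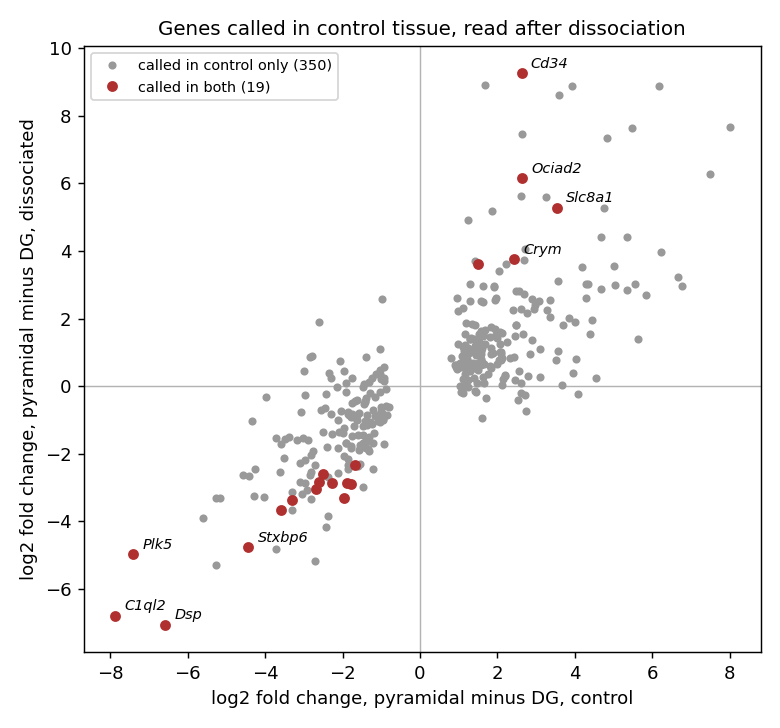
Log2 fold change, pyramidal minus DG, in control (x axis) and dissociated (y axis) libraries for the 369 genes called in control tissue and tested in both; the 19 called in both are red. Of the 369 points 333 have the same sign on both axes, and the axes share no library.

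Several of the genes with the largest control differences were too low to be tested after dissociation. Cdh6, Htr5b, Vip and Esr1 had no count in the DG libraries of either treatment, and 42, 87, 65 and 74 counts over the 5 dissociated pyramidal libraries. Wnt2 had no count in dissociated DG, 0.74 and 0 CPM in control DG, and 103 counts in the dissociated pyramidal libraries, with 134.6 CPM in CA1 replicate 2. Pdyn, the prodynorphin gene of granule cells, was at 76.2 CPM in DG replicate 4, at 0 in DG replicate 3 and at 0.68 CPM or less in the pyramidal libraries, and was not tested. Npnt, an extracellular matrix gene of granule cells, was at 84.7 and 34.1 CPM in DG and at 7.08 CPM or less in the pyramidal libraries (−5.29 ± 1.39 SE, edgeR adjusted p = 0.0877; control −5.27). Il1r1, the interleukin 1 receptor gene, was at 50.8 and 24.3 CPM in DG and at 7.21 CPM or less elsewhere (−3.31, edgeR adjusted p = 0.239). Pcsk5 and Ipcef1 were at −3.89 and −2.64, neither of them called, and Tdo2 was not tested.

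Of the 10 genes with the largest control differences toward the pyramidal libraries, 5 could be tested after dissociation and 0 were called. Nov, a matricellular protein gene of CA1, was at 215.3, 467.5 and 3.27 CPM in CA1, 58.4 and 4.5 CPM in CA3, and 16.9 and 0 CPM in DG (1 count in DG, pooled ratio 93.5, 95% exact Poisson interval 16.8 to 3692, edgeR adjusted p = 0.239). Ptpru, a receptor phosphatase gene, was at 142.8, 85.0 and 13.1 CPM in CA1, 132.8 and 10.8 CPM in CA3, and 16.9 and 3.24 CPM in DG (3 counts in DG, pooled ratio 26.3, 9.02 to 127.8, edgeR adjusted p = 0.197). In both genes the libraries labelled CA1 replicate 3 and CA3 replicate 4 were the lowest of the pyramidal libraries. Crhbp, Lefty1 and Ankrd63 had positive log2 fold changes with overlapping groups.

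Whether a difference between pyramidal regions and DG changed with dissociation was tested as an interaction over all 14 libraries. Of 13063 genes, 1 was called (0.00766%), Rps12-ps3, the copy of Rps12 described above (edgeR adjusted p = 0.0198), and 1697 had an unadjusted p under 0.05. DESeq2 called 20 genes as more positive and 7 as more negative after dissociation. In this fit of all 14 libraries, the other genes called in 1 of the 2 sets of libraries and not in the other were not shown to differ between the sets by edgeR. The fits that follow each keep only DG replicate 3 or only DG replicate 4 of the dissociated DG libraries. Its spread is then taken from the other groups. Without DG dissociated replicate 3 edgeR called 52 genes as more positive and 3 as more negative, without DG dissociated replicate 4 it called 0 and 7, and without the 3 libraries under 500000 counts 312 and 21.

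The calls rested unequally on the libraries. With DG replicate 4 left out, 7 of the 58 genes were still called (Acta1, Acta2, Klkb1, Grip2, Npffr1, Bmt2 and Stxbp6), 0 of them higher in the pyramidal libraries. With DG replicate 3 left out, all but 6 of the 58 were still called, and 151 genes in all were called higher in the pyramidal libraries and 89 higher in DG. In each of these fits the 1 DG library is assumed to vary like the pyramidal ones. With CA1 replicate 1, CA1 replicate 2 or CA3 replicate 1 left out, 38, 34 and 27 of the 58 were no longer called, and without the libraries labelled CA1 replicate 3 and CA3 replicate 1 together 33 were still called.

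**Figure D5:**
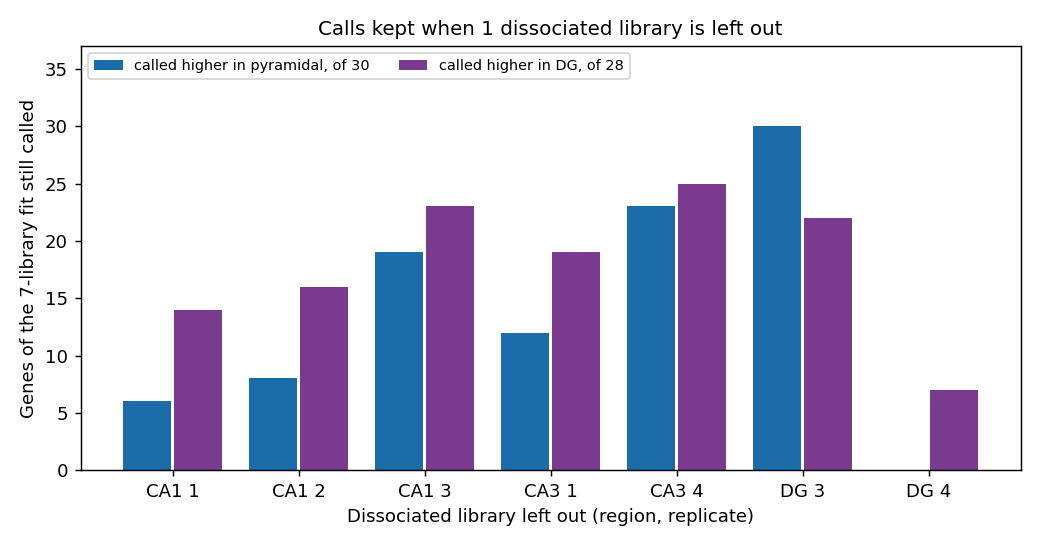
Number of the 30 genes called higher in the pyramidal libraries and the 28 called higher in DG that are still called when the dissociated library named on the x axis is left out. Leaving out DG replicate 4 keeps 0 and 7 of them, and leaving out DG replicate 3 keeps 30 and 22.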

How the data were processed

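RNA-seq libraries of 7 dissociated and 7 control tissue samples were used. The submitters' processing notes list kallisto, cutadapt, FastQC and DESeq2. Their versions, the build, the annotation and the strand setting: not given in the sources used here. Transcript tables deposited by the authors hold estimated counts and TPM from kallisto, per the file headers. The deposited gene table holds expected (estimated) counts of 22485 symbols, each within 0.5 of the transcript sum by symbol, rounded by the authors. Kallisto divides reads among transcripts of shared sequence, so near-identical copies are uncertain, and without a stated strand so are overlapping and antisense genes.

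The test was that of edgeR 4.0.16 (R 4.3.3; filterByExpr on region, minimum count 10, minimum total 15, TMM, quasi-likelihood F test, Benjamini-Hochberg adjusted p under 0.05). DESeq2 1.42.0 and limma 3.58.1 on log2(TPM + 1) were alternatives. The test was checked on simulated counts with the same spread for every gene and library. That check does not cover DG libraries as unequal as those measured here. SE came from the F statistic. Printed CPM use TMM library sizes. Gene positions were looked up by identifier in GENCODE M21 (GRCm38).

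Named genes were, among called genes of at least 5 mean CPM, the 15 of largest log2 fold change in each direction, the 10 in each direction likewise in control tissue, the 5 smallest interaction p-values, and members of 30 lists. Comparison and lists were chosen with earlier results of these data known. Folds against 0 counts use 3 counts over the pooled group. Intervals and limits cover counting error only, because PCR reads are not independent molecules and no molecular identifiers are named. Some results that met the naming rule are not reported here.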

Additional observations from a re-analysis of the deposited data

Results flagged for a closer look

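Among the 30 genes named for their fold change after dissociation, the level of Acta2 in CA3 replicate 4 stood apart from the other 4 pyramidal libraries, at 6.3 CPM against 0.225 CPM or less. The gap took up 0.964 of the range. The limit for 5 libraries is 0.71. Chance gives such a gap in about 1 in 20 groups, and 30 genes were examined. No count in CA1 replicates 2 and 3 allows up to 22.2 and 9.97 CPM by library total. Both limits are above 6.3 CPM, so nothing is read from the gap of Acta2. For Igsf9 the gap was 1 of the range, which follows from 4 libraries at 0 and a single count in the deepest library, CA1 replicate 1 (0.225 CPM); 0 counts in CA1 replicate 2 allow up to 22.2 CPM, so nothing is read from it.

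The difference between pyramidal libraries and DG changed with dissociation for Rps12-ps3, by 11.87 on the log2 scale (edgeR interaction test, adjusted p = 0.0198). The gene had no count in the 2 dissociated DG libraries, so this fitted size is not a bound. In the dissociated DG libraries the near-identical Rps12 had 7 and 53 counts, and the summed level of the pair overlapped between the regions.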

How the results depend on the processing

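None of the results reversed under any alternative, and the 58 called genes kept their sign wherever they were tested. With all 7 dissociated libraries, 30 genes were called higher in the pyramidal libraries and 28 higher in DG. These counts were 241 and 210 with no filter on low counts, 125 and 109 by DESeq2, 192 and 93 without the 3 libraries under 500000 counts, 282 and 217 in a fit of all 14 libraries, and 75 and 6 on log2(TPM + 1) with limma-trend. The fit without the 3 libraries under 500000 counts keeps DG replicate 4 as the only DG library, which is assumed to vary like the pyramidal ones. With RLE scaling 44 genes were higher in DG, and with 3 region means 16 were higher in the pyramidal libraries. RLE scaling moved the share of higher calls from 51.7% to 42.1%, the 3 region means to 35.6%, and the median of all genes was 0.01 with RLE and 0.11 with TMM. With 1 library left out the counts ranged from 0 to 151 and from 16 to 89.

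Same-numbered libraries of different regions correlated at 0.162, −0.026 and 0.019 after region means were removed. These few pairs include shallow libraries, and no pairs of unlike number were set beside them. They cannot show whether replicate numbers pair the libraries. With a replicate block, 0 genes were called higher in the pyramidal libraries and 1 higher in DG, 95 were higher in DG in control tissue, and the interaction gave 2 and 2.

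In control tissue, where 224 and 204 genes were called, DESeq2 called 526 and 333, no filter gave 310 higher in DG, and leaving out 1 library gave 33 to 549 and 35 to 378. The share of control-called genes with the same direction after dissociation (90.2%) was 84.1% by DESeq2 and 73.7% to 93.9% with 1 library left out (82.0% without DG control replicate 3); the number called in both (19) was 72 by DESeq2, 56 without the 3 shallow libraries and 2 to 53 with 1 library left out. The interaction (1 and 0 called) gave 20 and 7 by DESeq2 and 312 and 21 without the shallow libraries, and with 1 library left out 0 to 52 and 0 to 7; alternatives without a DG control library were chosen after seeing the data. CA1 against DG gave 123 calls by DESeq2, 50 without the shallow libraries and 124 without the libraries labelled CA1 replicate 3 and CA3 replicate 1, also chosen after seeing the data; CA3 against DG gave 68, 153 and 86, and CA1 against CA3 20 without those 2. Fits without the shallow libraries keep DG replicate 4 as the only dissociated DG library. Causes of these shifts were not tested. The 65887 counts of DG replicate 3 limit what can be seen of genes below 45.5 CPM, by library total, in it.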
